A study of Mus musculus with 14 samples.

Results

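The genes of 10 glycolysis enzymes (Hk1, Gpi1, Pfkp, Aldoa, Tpi1, Gapdh, Pgk1, Pgam1, Eno1 and Ldhb) were examined in single mouse oocytes that carried or lacked maternal Kdm1a. They were chosen by name, 1 gene for each of 10 enzymes of the pathway, from the 24064 genes of the count table, to ask whether the higher level of Gapdh in mutant oocytes was shared by the enzymes before and after it. It was not shared by all of them. Gapdh and Ldhb were higher in mutant oocytes, Pgam1 was lower, 4 genes did not pass the test and 3 had too few reads to be tested. None of these 3 changes was called against the 1 control oocyte of the same mixed background as the mutants, a fit in which only 0.034% of all genes were called. The ratio of means for Gapdh was 5.05 against all controls and 1.84 against that oocyte, both on levels scaled between oocytes. The size of these ratios depends on that scaling.

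Glycolysis turns glucose into pyruvate in the cytosol, and lactate dehydrogenase then interconverts pyruvate and lactate. The mouse oocyte uses glucose poorly by itself and takes up pyruvate that the surrounding cumulus cells make from glucose. Its store of messenger RNA is laid down during growth, before transcription falls silent, so a level in an ovulated oocyte reflects both synthesis and storage.

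KDM1A removes methyl groups from histone H3. The control set held 4 wt/wt oocytes of strain C57BL/6J, called wt1, wt3, wt4 and wt5 here, and 1 oocyte of a Kdm1a flox/flox (f/f) female of mixed B6;129 background, called C3. The 5 mutant oocytes, D1 to D4 and D7, came from flox/flox females of the same mixed background that also carried Zp3-cre, a transgene expressed only in growing oocytes (labelled mko/mko). Both f/f and mutant oocytes thus came from flox/flox females, with the allele recombined by Cre in the mutants, and strain differed between wt/wt oocytes and all others, so genotype and strain cannot be told apart in the wt/wt comparison. The labels give no age, and nothing says that the oocytes came from separate females, so the p-values measure the spread among these oocytes. Total counts per oocyte ran from 1375187 to 6928548 in controls, the highest being C3, and from 2016701 to 6926076 in mutants. Kdm1a had 27 to 669 counts in control and 0 to 10 in mutant oocytes (log2 fold change -5.02, adjusted p = 0.0011). All 16 oocyte markers had counts, and 11 of them were called higher in mutants, where 14.7% of all tested genes were called higher. Zp2, a zona pellucida gene, rose from 61.5 ± 45.9 to 1656 ± 1342 CPM (counts scaled to library size, SD, n = 5 each), Ooep, a gene of the subcortical maternal complex, from 111 ± 108 to 2591 ± 2482 and Figla, an oocyte transcription factor, from 0.259 ± 0.394 to 19.6 ± 20.4. Figla had 0, 0, 1, 0 and 4 counts in controls and 61, 20, 9, 316 and 2 in mutants. It thus had enough reads to be tested only through the mutants, with most of them in D4. The cumulus and granulosa cell markers were near the floor, with 12 of 22 without a count and 15 at 3 counts or fewer in every oocyte, while their summed level in CPM was 26.9 to 80.7 in control and 85.9 to 157 in mutant oocytes. Cyp19a1, the aromatase gene, gave 8.52 to 62.8 CPM of that sum in control and 79.2 to 147 in mutant oocytes and was called, alone among the 3 tested markers. The others had log2 fold changes of -0.34 (Kitl) and -1.60 (Nr5a2), and the median of the 3 was -0.34. Among untested markers, all on few reads, Has2 (2.08 and 0.122 CPM), Gja1 (1.65 and 0.0608) and Amhr2 (0.164 and 0) had lower means in mutants. Star (0.155 and 0.857 CPM), Cyp11a1 (0 and 0.122), Ptgs2 (0 and 0.0997) and Hsd3b1 (0.164 and 0.203) had higher means. The part of these markers in the results was not tested.

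The promoters of the 3 members that changed are shown because they differ in whether they hold the letters ACGTG. These are a form of the core bound by hypoxia-inducible factors and lie within the E-box CACGTG. Factors of both kinds are known regulators of glycolysis genes in other tissues. Other forms of the core, such as GCGTG, were not searched or marked. Each runs from 250 bases before to 50 bases after a RefSeq transcription start on GRCm38.p6, which is mm10, and reads 5′ to 3′ on the strand of the gene. Capitals mark ACGTG on either strand, so that a match on the other strand reads CACGT.
Gapdh promoter at chr6:125165724-125166023, minus strand: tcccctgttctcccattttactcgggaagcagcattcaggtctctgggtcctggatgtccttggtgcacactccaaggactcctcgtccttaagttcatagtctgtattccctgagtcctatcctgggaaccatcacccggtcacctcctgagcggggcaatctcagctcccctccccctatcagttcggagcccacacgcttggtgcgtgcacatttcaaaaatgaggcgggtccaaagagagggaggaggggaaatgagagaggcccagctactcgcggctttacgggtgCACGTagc
Pgam1 promoter at chr19:41911621-41911920, plus strand: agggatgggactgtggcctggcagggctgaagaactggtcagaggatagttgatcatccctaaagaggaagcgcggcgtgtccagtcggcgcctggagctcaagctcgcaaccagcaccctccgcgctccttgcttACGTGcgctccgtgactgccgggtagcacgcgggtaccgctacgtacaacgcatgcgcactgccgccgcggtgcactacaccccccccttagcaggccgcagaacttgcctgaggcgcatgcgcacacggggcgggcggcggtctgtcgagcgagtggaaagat
Ldhb promoter at chr6:142507908-142508207, minus strand: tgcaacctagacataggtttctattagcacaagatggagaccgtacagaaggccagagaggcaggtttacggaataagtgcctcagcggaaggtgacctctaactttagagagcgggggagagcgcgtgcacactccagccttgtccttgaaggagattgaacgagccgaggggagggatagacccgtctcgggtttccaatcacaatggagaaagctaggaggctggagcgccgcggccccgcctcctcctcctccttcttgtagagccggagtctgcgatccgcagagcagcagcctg
ACGTG occurred once in the promoter of Gapdh, which was higher in mutants, once in that of Pgam1, which was lower, and not in that of Ldhb, which was higher. It also occurred in members that were not called or not tested, 2 times in the promoter of Pgk1, 2 times in 1 of the Hk1 promoters and once in 2 overlapping Aldoa promoters, and not in those of Gpi1, Pfkp, Tpi1 and Eno1. Of 32851 promoters of this length, 19.6% held ACGTG. The full E-box CACGTG, which contains ACGTG, was held by 7.15% of them and by no promoter of the 10 genes. GC content was 56.7% in the Gapdh, 65.0% in the Pgam1 and 57.3% in the Ldhb promoter, against a median of 52.7% over all promoters. A match is only a match of letters in this window.

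The members of the upper steps of the pathway were thinly expressed. This does not cover other genes of these steps, as Adpgk, an ADP-dependent glucokinase, stood at 267 CPM in control oocytes. Hexokinase traps glucose in the cell as glucose 6-phosphate, and its gene Hk1 had 1, 0, 2 and 1 counts in the wt/wt oocytes and 0 in C3 and in each of the 5 mutants. With 4 counts in all it could not be tested. A count of 0 allows up to 3 counts, which stand for 0.456 CPM in D4, the deepest mutant oocyte, and 1.83 CPM in D2.

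Gpi1, which converts glucose 6-phosphate into fructose 6-phosphate, had 1.66, 3.02, 2.04 and 5.83 CPM in wt/wt oocytes, 10.9 in C3 and 7.68, 5.48, 2.14, 5.93 and 2.99 in D1, D2, D3, D4 and D7. CPM here is over library sizes adjusted by TMM, a scaling that assumes most genes do not change. The highest value was that of the f/f oocyte and the groups overlapped. Mutant against control, the log2 fold change was 0.01 (SE 0.66, adjusted p = 0.993 from the quasi-likelihood test of edgeR, adjusted over all 9198 genes tested), and its sign changed with the scaling.

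Pfkp, the platelet form of phosphofructokinase, which commits sugar to glycolysis, had 1.11, 2.59, 2.04 and 1.35 CPM in wt/wt oocytes, 0.222 in C3 and 0.548, 0.609, 0.712, 2.28 and 0 in the mutants in the same order. Aldoa, the aldolase that splits fructose 1,6-bisphosphate, had 7.74, 2.16, 0 and 0.449 CPM in wt/wt oocytes, 0.444 in C3 and 0, 0.609, 1.78, 2.28 and 0 in the mutants. Neither gene separated the groups. Pfkp gave a log2 fold change of -0.60 (SE 0.93, adjusted p = 0.668) and Aldoa of -0.94 (SE 1.14, adjusted p = 0.571), so changes of more than 2-fold either way lie within about 2 standard errors. Tpi1, which interconverts the pair of triose phosphates, had 2, 1, 0 and 5 counts in wt/wt oocytes, 2 in C3 and 1, 0, 1, 21 and 0 in the mutants, and was not tested. Nearly all its mutant counts were in D4, the mutant with the most reads.

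Gapdh oxidizes glyceraldehyde 3-phosphate and is often taken as a reference gene, as in the PCR of the study. It had 7, 55, 55 and 48 counts in wt/wt oocytes, 392 in C3 and 432, 474, 255, 200 and 309 in the mutants. In CPM these were 3.87, 23.7, 22.5 and 21.5 in wt/wt oocytes, 87.0 in C3 and 237, 289, 90.8, 30.4 and 154 in the mutants. The wt/wt oocytes were the lowest, C3 lay above them, and 4 of 5 mutants exceeded every control, D3 by the least, while D4 lay below C3. The mean was 31.7 ± 32.0 CPM (SD, n = 5) in control oocytes and 160.2 ± 105 (SD, n = 5) in mutants. This gave a log2 fold change of 2.32 (SE 0.67, adjusted p = 0.0187 by edgeR). The ratio of means was 5.05 against all controls, 8.95 against the wt/wt oocytes and 1.84 against C3. These ratios depend on the scaling, since C3 had the lowest TMM factor (0.651), which raises its CPM. As a share of total counts, Gapdh was 0.00566% in C3 and 0.0184%, 0.0235%, 0.00786%, 0.00289% and 0.0145% in the mutants.

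The other reference genes of the study were not called. Hprt, a purine salvage enzyme, had 199 ± 54.8 CPM (SD, n = 5) in control oocytes and 195 ± 78.2 (SD, n = 5) in mutants, and its log2 fold change was -0.03 (SE 0.37, adjusted p = 0.964). Ppia, a peptidyl-prolyl isomerase, stood at 65.2 ± 40.0 and 139.9 ± 13.1 CPM and gave a log2 fold change of 1.10 (SE 0.40, adjusted p = 0.053). Among all tested genes the 3 whose log2 CPM ran most like that of Gapdh over the 10 oocytes were Cox10, Crb3 and Rbm38 (Pearson r of 0.987, 0.986 and 0.980). These are given as a description, since all oocytes share the split by genotype.

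Pgk1, which makes the first ATP of the pathway, had 12.7, 16.8, 20.4 and 16.2 CPM in wt/wt oocytes, 9.77 in C3 and 17.6, 20.7, 13.5, 26.9 and 8.97 in the mutants. D2 and D4 lay above and D7 below all controls, and the other mutants lay among them. The log2 fold change was 0.22 (SE 0.43, adjusted p = 0.738 by edgeR). Pgk1 directly follows Gapdh in the pathway.

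Pgam1 moves the phosphate of 3-phosphoglycerate and was the member that fell. It had 109, 79, 100 and 141 counts in wt/wt oocytes, 153 in C3 and 8, 28, 54, 68 and 10 in the mutants. In CPM these were 60.2, 34.1, 40.9 and 63.3 in wt/wt oocytes, 34.0 in C3 and 4.39, 17.1, 19.2, 10.3 and 4.99 in the mutants. All 5 mutants lay below all 5 controls, and C3 lay at the lower end of the wt/wt oocytes. The mean fell from 46.5 ± 14.2 CPM (SD, n = 5) to 11.2 ± 6.79 (SD, n = 5), a log2 fold change of -2.04 (SE 0.46, adjusted p = 0.00566 by edgeR).

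Eno1, the main enolase of most tissues, was listed at 0 in all 10 oocytes. That is a limit of 3 counts in each, and 72.2% of its 50-base windows also occur in transcripts of other genes, from which unique placement cannot count reads.

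Ldhb, the heart-type subunit of lactate dehydrogenase and the form known to predominate in the mouse oocyte, was by far the most abundant member. It had 599, 815, 764 and 5260 CPM in the wt/wt oocytes, 5230 in C3 and 17039, 12028, 17108, 16188 and 6934.5 in the mutants. The wt/wt oocytes other than wt5 were low, wt5 was as high as C3, and every mutant exceeded every control, D7 by the least. The mean rose from 2533.5 ± 2476.5 CPM (SD, n = 5) to 13860 ± 4398.8 (SD, n = 5), with a log2 fold change of 2.45 (SE 0.63, adjusted p = 0.0109 by edgeR). The ratio of means was 5.47 against all controls, 7.45 against the wt/wt oocytes and 2.65 against C3. As for Gapdh, these ratios depend on the scaling. As a share of total counts, Ldhb was 0.340% in C3 and 0.651% to 1.54% in the mutants.

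**Figure D1:**
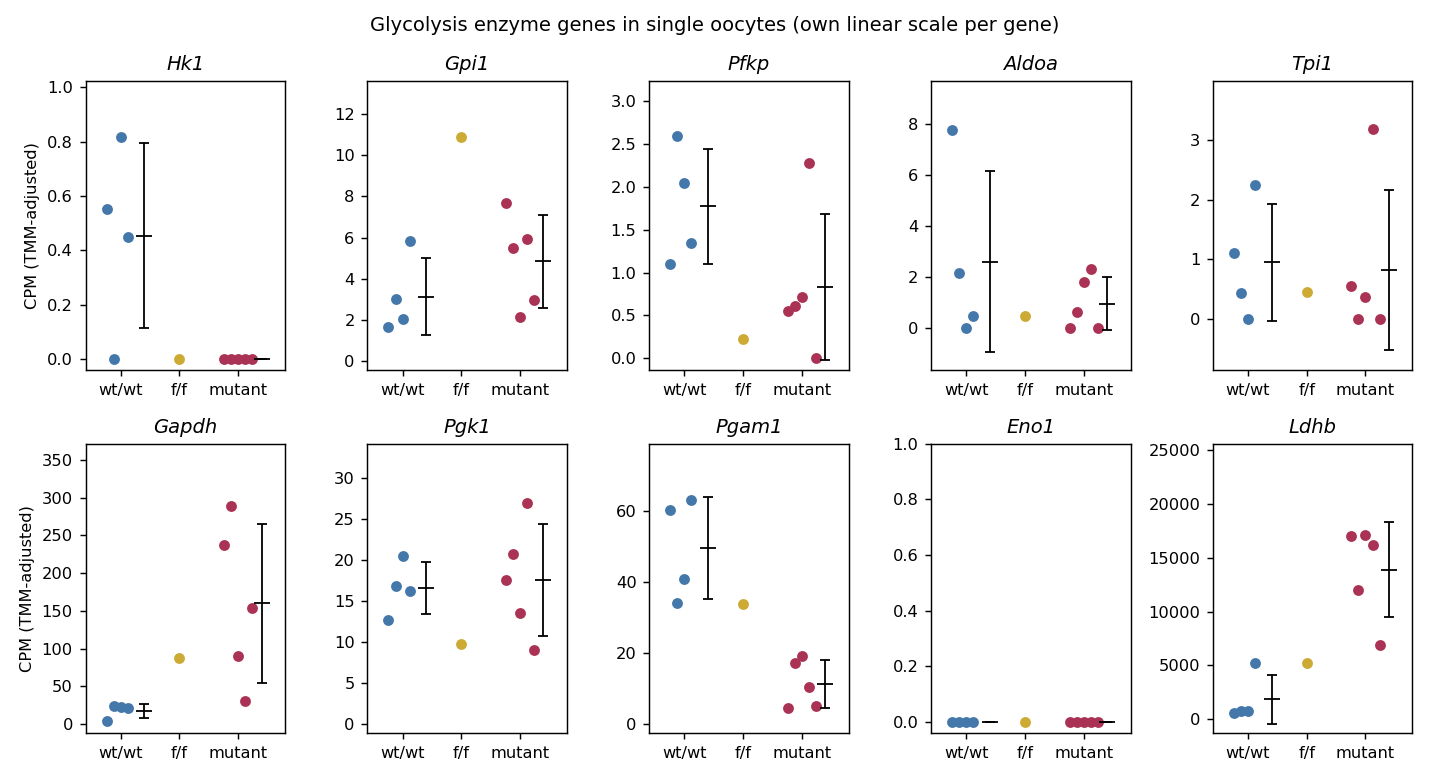
CPM adjusted by TMM (linear axis, its own scale for each gene) of the 10 members in 4 wt/wt, 1 f/f and 5 mutant oocytes. Points are oocytes and bars the mean ± SD of the wt/wt and the mutant oocytes, which can reach below 0. Pgam1 and Ldhb separate mutants from all controls, Gapdh does so except for D4, and the f/f oocyte lies between the wt/wt and mutant means for Gapdh and Ldhb.

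Of 7 members tested, 3 were called (2 higher, 1 lower) at an adjusted p below 0.05 with a change of 2-fold or more, where 25.9% of all tested genes were called, 14.7% higher and 11.2% lower. The change of Gapdh, seen earlier in these data, prompted the choice of these genes, and without it 2 of 6 were called, so nothing is read from the count. Groups did not overlap in 2 of the 7 members, against 16.2% of all genes. Of the 7 fold changes, 4 were above 0 and 3 below, with a median log2 fold change of 0.01 against 0.17 over all genes. Scaling by library totals lowered the median of all genes by 0.39 on the log2 scale, to -0.23, and that of the members to -0.28, with 2 members above 0 and 5 below. Over all called genes the share called higher was 56.8% under TMM and 36.6% under library totals. Gapdh and Ldhb stayed higher and Pgam1 lower under it (log2 fold changes of 2.13, 2.15 and -2.54). With each oocyte left out in turn these 3 stayed called, with the log2 fold change of Gapdh between 2.03 without D2 and 3.19 without C3.

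The wt/wt and f/f controls were also used one at a time. Against the 4 wt/wt oocytes alone, where 31.5% of all genes were called, Gapdh gave a log2 fold change of 3.19 (SE 0.64, adjusted p = 0.0019), Ldhb of 2.87 (SE 0.62, adjusted p = 0.00295) and Pgam1 of -2.13 (SE 0.48, adjusted p = 0.00392), all by edgeR. Against C3 alone the same genes gave 0.91 (SE 0.99, adjusted p = 0.641), 1.43 (SE 0.64, adjusted p = 0.253) and -1.57 (SE 0.78, adjusted p = 0.294). None of the 5 members tested by edgeR in that fit was called (1 at an unadjusted p under 0.05), only 0.034% of all genes were called, and the lone control was assumed to vary like the mutants. The direction of the 3 genes was the same against either control, and the value for Gapdh was smaller against C3, a difference that was not tested.

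**Figure D2:**
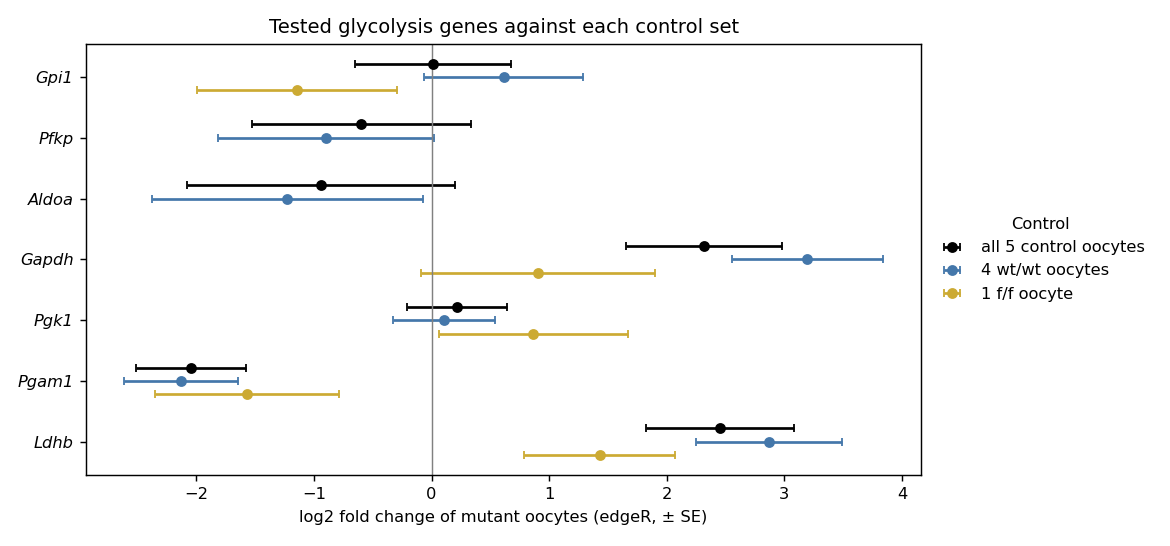
The log2 fold change of mutant oocytes (x axis) for the 7 tested members (rows) against all 5 controls, the 4 wt/wt oocytes or the 1 f/f oocyte, with bars for the standard error of edgeR. Gapdh runs from 0.91 against C3 to 3.19 against wt/wt, Pgam1 lies below 0 and Ldhb above 0 in all 3, and Pfkp and Aldoa were not tested against C3.

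The names C3, D3, D4 and D7 each covered a pair of libraries, 1 of them with DNA in its title, whose counts were summed. One column of the count table has the characters of the C3 library with DNA in its title in another order and was taken as that library, so every C3 value rests partly on this reading. In every pair the library with DNA in its title, given first here, had the lower Gapdh and Ldhb level in CPM adjusted by TMM. For Pgam1 it was the higher in C3 (35.4 and 26.2 CPM) and D3 (24.7 and 14.9). It was the lower for Pgam1 in D4 (6.89 and 12.1) and D7 (3.37 and 5.76). The size of these gaps depends on the scaling, as Gapdh had 191 counts of 3518290 and 201 of 3410258 in C3. For Gapdh the values were 65.6 and 105 CPM in C3, 66.4 and 98.7 in D3, 21.5 and 34.4 in D4, and 120 and 160.5 in D7. For Ldhb they were 3207 and 7452 CPM in C3, 8524 and 20847 in D3, 12162 and 17628 in D4, and 3877 and 8944 in D7. Under this scaling the lower D7 library lay below the higher C3 library for Ldhb, while the summed values of mutants all lay above C3. By library totals that order was reversed, with 4599 counts of 986262 in this D7 library and 14221 of 3410258 in this C3 library.

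Levels between genes were compared per kb of transcript. Ldhb stood at 1943 CPM per kb in control and 10629 in mutant oocytes, percentiles 99.7 and 99.9 of the 8814 tested genes with a length. Pgam1 (26.2 CPM per kb), Gapdh (22.3) and Pgk1 (8.32) followed in control oocytes, and Gpi1 (1.63), Aldoa (1.43), Tpi1 (0.526), Pfkp (0.353) and Hk1 (0.0945) were low. In mutant oocytes Gapdh at 113 CPM per kb stood second and Pgk1 at 9.61 came above Pgam1 at 6.31. In the control order of the 9 members with counts, the mean ± SD of neighbours overlapped except between Ldhb and Pgam1 and between Pgk1 and Gpi1. Ldhb made up 87.1% of the CPM of all members in wt1 and 99.5% in D4. Without it, the members summed to 82.9 to 111 CPM in wt/wt oocytes, 143 in C3 and 81.4 to 333 in mutants.

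Other isozymes were compared as shares of a step in counts per kb, which does not depend on scaling between oocytes. Among hexokinases Hk1 took 32.2% ± 41.3 (SD, n = 5) in control and 0% in mutant oocytes (two-sided exact permutation test, p = 0.167, adjusted 0.429 over the steps), on only 1 to 34 counts for all hexokinases in an oocyte. The share of 100% in wt1 rested on 1 count, and without wt1 the difference moved from -32.2 to -15.3 percentage points. Among phosphofructokinases Pfkp took 34.2% ± 21.0 and 18.6% ± 18.1 (SD, n = 5 each, exact permutation p = 0.214, adjusted 0.429), and without wt5 the difference moved from -15.7 to -9.85 percentage points. Ldhb held 99.96% to 100% of lactate dehydrogenase in every oocyte, and Ldha, the muscle-type subunit, had 5 counts in all. Aldoa was the one aldolase with counts.

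Many members have copies elsewhere in the genome, and the authors kept only unique best alignments. Of the 50-base windows in the last 3 kb of each transcript, 82.5% of those of Gapdh occurred in transcripts of 222 other genes, of which 215 are pseudogenes. The share was 68.0% for Pgk1, 41.5% for Pgam1, 27.0% for Ldhb, 25.3% for Gpi1, 23.7% for Pfkp, 13.9% for Aldoa, 7.51% for Tpi1 and 0 for Hk1. The levels of Gapdh, Pgk1 and Eno1 are therefore uncertain relative to other genes, and the part of the copies in the differences between groups was not tested. A gene on the other strand overlaps Gapdh (Iffo1), Tpi1 (Spsb2), Aldoa (Fam57b and Gm44856), Pfkp (Pitrm1), Gpi1 (Gm26762) and Hk1 (Hk1os), and strand was not stated for the counting. Pgk1, Pgam1, Eno1 and Ldhb had no overlapping gene. In GRCm38 Gapdh lies on the minus strand at chr6:125161715-125166467, Ldhb on the minus strand at chr6:142490249-142507957 and Pgam1 on the plus strand at chr19:41911923-41918660.

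**Figure D3:**
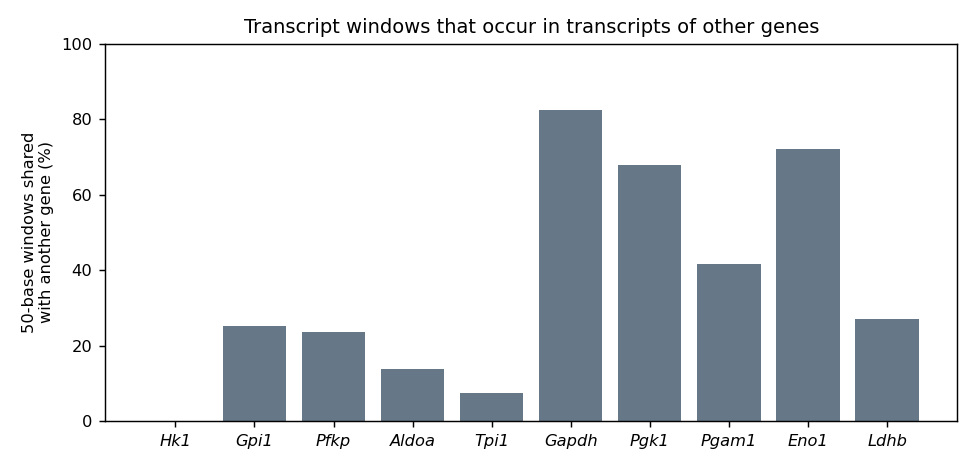
Share (%) of the 50-base windows of each member's transcript, within 3 kb of its 3′ end, that also occur in a transcript of another gene. Gapdh has the highest share at 82.5%, followed by Eno1 at 72.2% and Pgk1 at 68.0%, while Hk1 has none.

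Of 52 tested genes in 7 lists of neighbouring pathways, 10 (19.2%) were called, against 25.9% of all tested genes, so these counts show nothing particular to these pathways. Of the 20 other isozymes and steps, 9 had no count, 5 were tested (median log2 fold change 1.30, against 0.17 for all genes) and 1 was called, Bpgm, which makes 2,3-bisphosphoglycerate and is related to Pgam1 in sequence. It is named here after its value was seen. Bpgm was higher in mutants (5791 ± 3496 and 14282 ± 7028 CPM, SD, n = 5 each, log2 fold change 1.30, SE 0.46, adjusted p = 0.0476 by edgeR), with groups that overlapped. The ratio of means for Bpgm was 2.47 against all controls, 3.35 against the wt/wt oocytes and 1.20 against C3, and 3 of 5 mutants lay below C3 at 11901 CPM. C3 had the lowest TMM factor (0.651), which raises its CPM, so the comparison with C3 depends on the scaling. D3, below C3 in CPM, had 30116 counts of 3245395, a larger share than the 53607 of 6928548 in C3. Pkm, the pyruvate kinase of the last step of glycolysis, was at 9.32 ± 7.97 CPM in control and 25.4 ± 19.0 in mutant oocytes and was not called. Of 7 tested regulators (median -0.71) 1 was called lower, Adpgk, an ADP-dependent glucokinase, also named after its value was seen (267 ± 107 to 103 ± 35.7 CPM, adjusted p = 0.0145).

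Of 5 tested carriers of glucose and monocarboxylates (median log2 fold change 0.47) 1 was called, and it was Mpc1, a subunit of the mitochondrial pyruvate carrier. Mpc1 rose from 74.9 ± 12.9 to 168 ± 53.6 CPM (SD, n = 5 each, log2 fold change 1.17, SE 0.33, adjusted p = 0.0172 by edgeR), with every mutant above every control. Of 9 tested genes of pyruvate dehydrogenase and its regulators (median -0.17) 2 were called lower. Pdp1, the phosphatase that activates pyruvate dehydrogenase, fell from 133 ± 49.6 to 16.4 ± 10.1 CPM (log2 fold change -3.01, SE 0.45, adjusted p = 0.000578), with every mutant below every control. Of 17 tested citrate cycle genes (median -0.18) 3 were called higher and 2 lower, close to the 14.7% and 11.2% of all genes, with Sdhc, a membrane subunit of succinate dehydrogenase, at 15.7 ± 3.28 and 76.7 ± 29.5 CPM (adjusted p = 0.000921) and Idh1, the cytosolic isocitrate dehydrogenase, at 58.4 ± 25.4 and 16.0 ± 8.50 CPM (adjusted p = 0.00987). None of 7 tested pentose phosphate genes (median -1.03) was called by edgeR, with 2 at an unadjusted p under 0.05 and 1 called by DESeq2. Of 2 tested gluconeogenesis genes (median -0.44) 0 were called by edgeR or DESeq2 and 0 had an unadjusted p under 0.05.

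**Figure D4:**
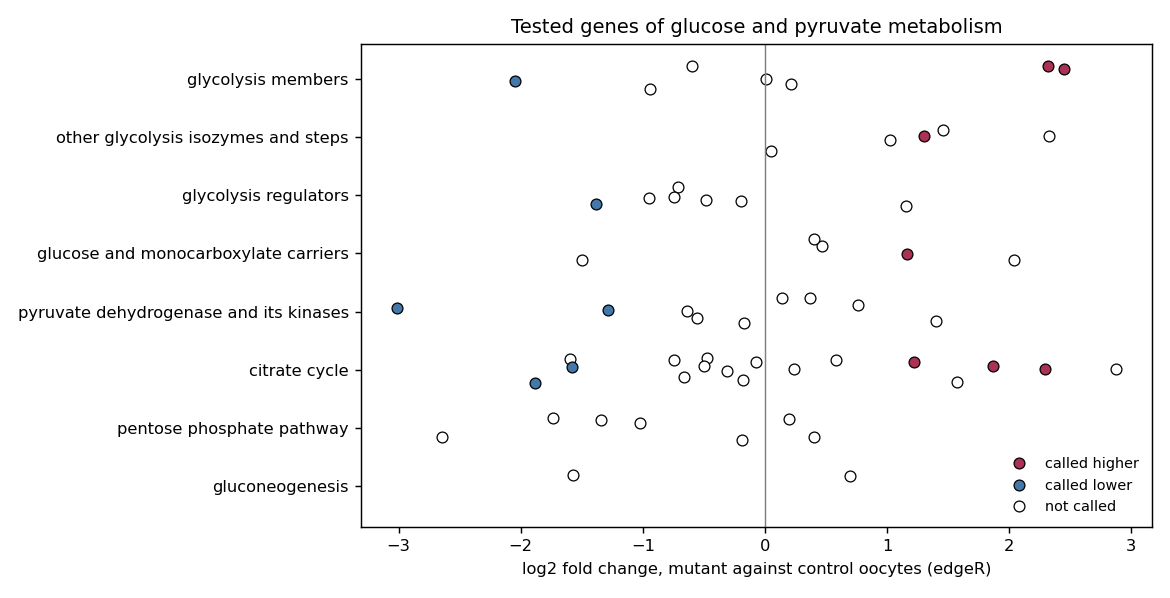
Difference of mutant from control oocytes as log2 fold change (x axis) for each tested gene of the 8 lists (rows, points spread vertically for legibility), coloured by call. Called genes lie on both sides of 0 within the members, with Pgam1 at -2.04 and Gapdh and Ldhb at 2.32 and 2.45.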

How the data were processed

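Single-oocyte cDNA was made by poly(A)-primed amplification reaching up to 3 kb from the 3′ end. The deposited files hold raw counts for RefSeq genes, which the authors made by aligning reads to mm10 with TopHat2 2.0.6 and counting unique best alignments with HTSeq 0.5.3p9 (versions from the processing notes). The 14 libraries gave 10 oocytes, since libraries sharing an oocyte name were summed, although the labels number them separately. Genes with a count were ranked by total and the top 60% kept (9198 of 15432). Genotypes were tested by edgeR 4.0.16 in R 4.3.3 (TMM, glmQLFit, glmQLFTest, genotype as the sole term), with p-values adjusted by Benjamini-Hochberg over all genes kept. TMM factors ran from 0.779 to 0.952 in mutants and from 1.30 to 1.37 in wt/wt oocytes, and C3 had 0.651. Floors of 3 counts cover counting error only, since the reads carry no molecular identifiers. The procedure was tested on simulated counts. Lengths matched 94.9% of genes.

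The members and lists were chosen with earlier results of these data known. Named genes were the members, Kdm1a, the reference genes, called genes of each list whose groups do not overlap (at most 3, or 2 for citrate cycle, pentose phosphate and gluconeogenesis, by smallest p), and the 3 genes most like Gapdh. Bpgm, Adpgk, Pkm, Ldha, Kitl, Nr5a2, Has2, Gja1, Amhr2, Star, Cyp11a1, Ptgs2 and Hsd3b1 fall outside this rule and were named after their values were seen. Alternatives were DESeq2 1.42.0, limma 3.58.1 voom with quality weights, scaling by upper quartile or library totals, filterByExpr, no filter, no fold threshold, every library as its own sample with and without the replicate number as a block, 1 library per oocyte, either control alone, thinned counts and each oocyte left out. For isozyme shares they were counts without length and lengths capped at 3 kb. Two-cell embryos were not analysed here.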

Additional observations from a re-analysis of the deposited data

Results flagged for a closer look

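Only 2 values stood apart within the 4 wt/wt oocytes by Dixon's ratio, the gap to the nearest value divided by the range, taken on log2 CPM with a prior count of 2. Gapdh in wt1, the shallowest oocyte, was the lowest, with log2 CPM of 2.20 against 4.48 to 4.61 in the others (ratio 0.944). Ldhb in wt5 was the highest, with log2 CPM of 12.36 against 9.23 to 9.67 (ratio 0.859). Of 21 sets tested, chance alone would flag about 1 in 20. Without wt1 and without wt5, in turn, both genes stayed called by edgeR.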

How the results depend on the processing

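In 21 of 23 alternatives 3 members were called. It was 1 with every library as its own sample and the replicate block, and 0 with the f/f oocyte alone as control. Leaving out each oocyte gave 3 throughout. Under the block, Ldhb stayed called (log2 fold change 2.69, adjusted p = 0.0432 by edgeR), and Gapdh (2.16, adjusted p = 0.0588) and Pgam1 (-1.51, adjusted p = 0.0754) passed the threshold no longer. The shared numbers did not pair the libraries (correlations of deviations of -0.03, 0.09 and -0.13 at numbers 3, 4 and 5), and the cause was not tested. Gpi1 turned below 0 with library totals (-0.22), no filter (-0.00056), every library as its own sample (-0.39), the replicate block (-0.39), 1 library per oocyte (-0.14), C3 alone (-1.14) and thinned counts (-0.26), and ran from -0.20 to 0.61 with each oocyte left out. Pgk1 turned to -0.28 with library totals and to -0.023 under the block, and Aldoa to 0.84 under the block. In the leave-one-out fits that tested it, Aldoa ran from -1.57 without D4 to -0.66 without D7. Pfkp ran from -0.90 without C3 to -0.31 without D7. The difference in the Ldhb share ran from -0.0028 to 0.0070 percentage points with each oocyte left out. No other member fold change or isozyme share among these alternatives changed direction. Under voom with quality weights Gapdh moved to 3.11 and Ldhb to 3.54, and with every library as its own sample Gapdh moved to 1.70 (adjusted p = 0.0417 by edgeR). Apart from DESeq2 calls for the pentose phosphate and gluconeogenesis genes, alternatives were not compared for the other lists. Leaving out 1 oocyte moved Gapdh to at most adjusted p = 0.0489, Ldhb 0.0328 and Pgam1 0.0186. The hexokinase difference ran from -40.3 to -15.3 and the phosphofructokinase difference from -22.9 to -9.85 percentage points with each oocyte left out. Hk1, Tpi1 and Eno1 had too few counts to be tested, and a single f/f oocyte limits what can be said of strain.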
